A study of Homo sapiens with 8 samples.

Results

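Whether loss of the PEA3 factors ETV1, ETV4 and ETV5 changes gene expression differently in a collagen gel and on plastic was read from all 8 of the 8 libraries of the series, as a design of 2 guides by 2 cultures. The quantity is a difference of differences for each gene: the knockout effect in gels (knockout gels against control gels, log2) minus the knockout effect in monolayers (knockout monolayers against control monolayers, log2). It is called the interaction below. A negative interaction means that the knockout lowered the gene more, or raised it less, in gels. It was tested for 15568 of the 61228 genes of the count table, those with enough counts, which hold 99.89% of all counts.

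The cells were MDA-MB-231, an established line of mesenchymal human breast cancer cells that lack estrogen receptor. Control monolayers carried control guide RNAs and grew on culture plastic, and control gels carried Cas9 with control guide RNAs and grew in collagen I. Knockout monolayers and knockout gels both carried Cas9 with guides against ETV1, ETV4 and ETV5. Each of these 4 groups had 2 libraries of polyA RNA. All cells were nucleofected and kept in DMEM/F12 medium with serum. The label of the control monolayers does not mention Cas9, so an effect of Cas9 itself and an effect of culture on the knockout cannot be told apart if those cells had none. Gels were digested with collagenase, dispersed and pelleted before lysis, a step that the protocol does not describe for monolayers, so culture and harvest cannot be told apart either. No source used here says which of the 2 collagen concentrations of the protocol each gel had, how long the cultures lasted, whether the cells are 1 clone or a pool, or whether the libraries of a group are independent cultures. What the p-values measure is thus the spread between these libraries, which may be technical.

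ETV1, ETV4 and ETV5 form the PEA3 group of ETS transcription factors, which bind GGAA-centred DNA sites and act downstream of receptor tyrosine kinases and ERK. They are known in breast and prostate cancer for driving matrix-degrading proteases and invasion. Low oxygen is read by the hypoxia-inducible factors, which bind hypoxia response elements and raise glycolysis, while adhesion and tension are read by the coactivators YAP and TAZ. Each of these programmes has genes in the results below.

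Library totals ranged from 15824504 to 23896899 counts, and the share of counts from mitochondrially encoded genes from 2.65% to 4.47%, with 3.15% and 4.26% in the control gels and 3.82% and 2.65% in the knockout gels. The biological coefficient of variation over all genes was 4.03%. Markers of the line were present: VIM stood at 5280 to 7410 CPM (a count divided by the effective size of its library) and CD44 at 353 to 591 CPM. ESR1 and PGR, which define hormone-receptor-positive breast cells, had 0 to 2 counts in a library. RNA of the targeted genes showed no called interaction. ETV1 stood at 200 and 205 CPM in control monolayers, 136 and 151 in knockout monolayers, 222 and 217 in control gels and 138 and 141 in knockout gels. Its interaction was -0.16 ± 0.072 (SE; 95% interval -0.31 to -0.01; adjusted p = 0.211). ETV4 had -0.13 ± 0.086 (adjusted p = 0.46) and ETV5 -0.01 ± 0.076 (adjusted p = 0.957). RNA of ETV5 did not differ by a called amount between knockout and control in either culture, so RNA levels check the labels for ETV1 and ETV4 only, and protein was not measured. With an offset for gene length and GC content, the ETV1 interaction became -0.2 and was called, at an adjusted p of 0.047.

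The knockout effect differed between cultures for 1028 genes (6.60% of those tested; edgeR's quasi-likelihood test, Benjamini-Hochberg adjusted over all tested genes, threshold 0.05). Of these, 415 (2.67% of those tested) were higher and 613 (3.94%) were lower in the interaction. The differences were mostly moderate: the median called interaction was 0.35 among the higher genes and -0.45 among the lower ones, and 70 called genes passed a size of 1 on the log2 scale, 59 of them lower and 11 higher. The median over all tested genes was -0.02. When the test asked for more than a fold of 1.5 rather than any difference, 19 genes remained, all lower. Across genes, the knockout effects in the 2 cultures had a Pearson r of 0.46 and a Spearman rho of 0.41 over 15568 genes, which are not independent replicates. The plot of the knockout effect in gels against that in monolayers shows where the called genes lie.

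**Figure D1:**
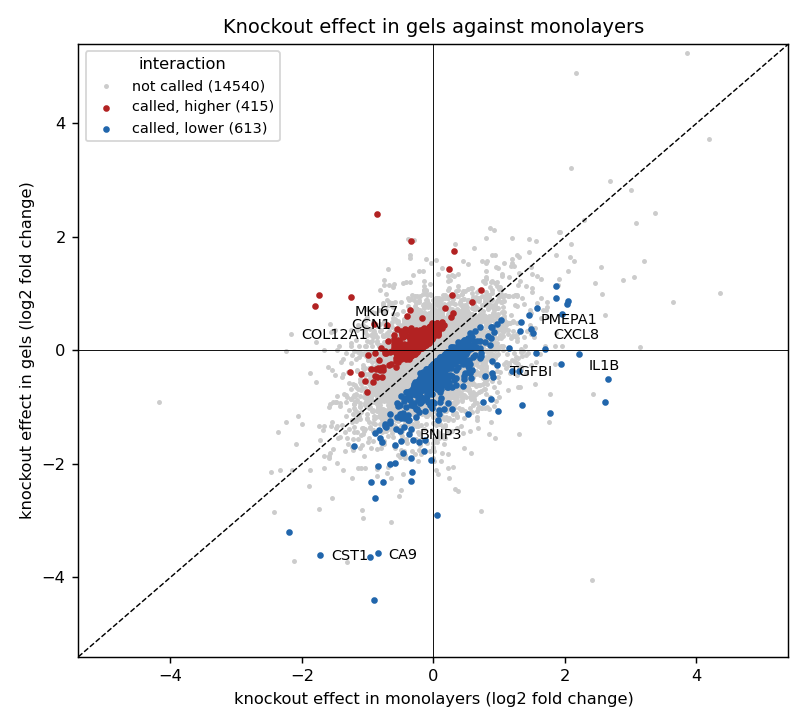
Knockout effect (log2 fold change) in monolayers on the horizontal axis and in gels on the vertical axis, one point per tested gene, with the line of equal effects dashed. The 613 genes called lower in the interaction lie below the line and the 415 called higher lie above it, and CA9 and CST1 lie far below.

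The 2 signs of the interaction were made up differently. Among the 613 lower genes, the knockout effect was called in gels alone for 296 (48.3%), where its median was -0.44 in gels against 0.03 in monolayers. A further 99 (16.2%) moved the same way in both cultures by more in gels. Among the 415 higher genes, the largest class, 183 (44.1%), had a knockout effect called in monolayers alone, with a median of -0.32 there and 0.05 in gels. Being called in 1 culture alone is a description of these classes, since the interaction is the test of the difference. In 74 genes the knockout effect was called in both cultures with opposite signs, 44 of them higher and 30 lower. A further 137 of the higher genes (33.0%) had a knockout effect called in gels alone, and 140 of the lower genes (22.8%) in monolayers alone. The bar chart of these classes gives all the counts.

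**Figure D2:**
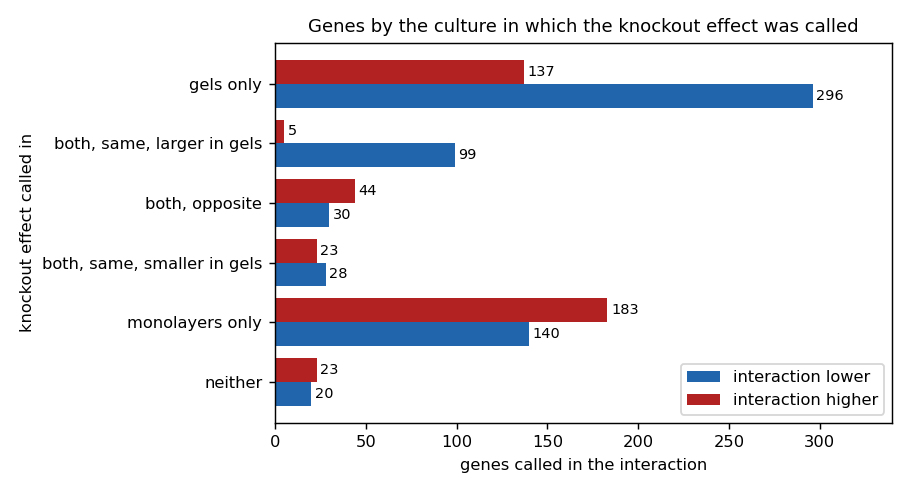
Number of genes called in the interaction, by the culture in which the knockout effect was called and by the sign of the interaction (bars, horizontal axis from 0). Lower genes are most frequent in the class of gels alone (296) and higher genes in the class of monolayers alone (183).

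The count of calls rested partly on single libraries. It was 407 without the first control gel library, 613 without the second, 633 without the first knockout monolayer library, 637 without the second knockout gel library and 645 without the first control monolayer library. With an offset for gene length and GC content the split turned to 608 higher and 474 lower, against 415 and 613 without it. The interaction had a Spearman rho of -0.239 with GC content and 0.111 with gene length across 15180 matched genes, and the part of either in the calls for single genes was not tested beyond that offset. No called gene changed sign under any of the settings tried. Of 119 called genes examined by name, 80 kept their call with each library left out in turn and 39 did not. Where such a gene is described, its call is marked.

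The hypoxia-response genes, targets of the hypoxia-inducible factors, held more calls by number than any other of the gene lists examined. Their share called was 65.9%, below the 76.9% of the glycolysis enzymes described further on. Of 44 listed and tested, 28 were lower and 1 was higher in the interaction, against 3.94% and 2.67% of all genes, and their median interaction was -0.50 against -0.02. The knockout lowered 18 and raised 2 of the 44 in monolayers, where 9.60% of all genes fell and 9.60% rose. In gels it lowered 36 and raised 1, where 12.4% of all genes fell and 11.5% rose. The same shares of all genes are the background for the counts of every list below. Stretches of 30 bases around the hypoxia core in the promoters of 6 of the genes described next are printed here, because these genes are among those with the smallest adjusted p in the hypoxia and glycolysis lists and the core is the element their known regulator reads. They are RefSeq sequences on GRCh38.p14, written 5′ to 3′ on the gene's strand, with matches to ACGTG or GCGTG on either strand (CACGT or CACGC on the reverse) in capitals.
CA9: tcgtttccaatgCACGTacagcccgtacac
BNIP3: cgCACGCgccgCACGTGccaCACGCacccc
P4HA1: tgtgatcgagctCACGTagcgagggctgca
LDHA: cgtgggttcccgCACGTccgccggcccccc
PGK1: aaacggaagccgCACGTctcactagtaccc
PFKFB4: tgagttgggcatGCGTGgtcggaggccggg

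The stretches lie at chr9:35673898-35673927 on the plus strand for CA9, chr10:131982039-131982068 on the minus strand for BNIP3, chr10:73096935-73096964 on the minus strand for P4HA1, chr11:18394478-18394507 on the plus strand for LDHA, chrX:78104053-78104082 on the plus strand for PGK1 and chr3:48556952-48556981 on the minus strand for PFKFB4. The start used for PFKFB4 lies inside the span of the gene (chr3:48517684-48563136), so its stretch is within the gene and not upstream of all of it. The 250 bases before the start held 6 matches in BNIP3, 5 in LDHA, 3 in PGK1 and 1 each in CA9, P4HA1 and PFKFB4, with overlapping matches on the 2 strands counted separately. ACGTG alone was present in 23 of 37 hypoxia-response promoters of that length (62.2%) and in 23.4% of the 11102 promoters of tested genes in the table. It was present in 20.9% of the promoters of all lower genes. For the glycolysis list the share with ACGTG was 36.0%, and for the cholesterol list described below it was 16.0%. With GCGTG allowed as well, the shares were 81.1% of the hypoxia list and 57.1% of all. They were then 80.0% of the cholesterol list, 56.0% of the glycolysis list and 50.5% of all lower genes. A match is a run of letters and was not tested as a binding site.

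CA9, the membrane carbonic anhydrase that acidifies the space outside hypoxic cells, had the largest interaction of the leading genes. It stood at 31.2 and 40.0 CPM in control monolayers, 18.9 and 20.2 in knockout monolayers, 45.6 and 40.6 in control gels and 3.56 and 3.67 in knockout gels. The knockout libraries were lower in both cultures, and the knockout gels lay far below every other group. The interaction was -2.73 ± 0.177 (95% interval -3.09 to -2.37; adjusted p = 1.15e-10), from a knockout effect of -0.85 in monolayers and -3.58 in gels. BNIP3, which tags mitochondria for mitophagy, had the smallest adjusted p of all genes. Its levels were 309 and 341 CPM in control monolayers, 242 and 258 in knockout monolayers, 468 and 454 in control gels and 163 and 170 in knockout gels. Control cells were higher in gels than on plastic and knockout cells were lower in gels than on plastic, with no overlap between any of the 4 groups. The interaction was -1.09 ± 0.071 (adjusted p = 9.25e-13).

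P4HA1, a prolyl hydroxylase subunit needed for collagen folding, stood at 112 and 126, 103 and 114, 142 and 140, and 67.1 and 67.6 CPM in control monolayers, knockout monolayers, control gels and knockout gels. Its monolayer groups overlapped, while its gel groups were far apart, and the interaction was -0.94 ± 0.084 (adjusted p = 1.01e-09). PFKFB4, which makes the activator of phosphofructokinase, had -1.39 ± 0.128 (adjusted p = 1.56e-08), and LOX, the collagen cross-linking lysyl oxidase, -0.85 ± 0.099 (adjusted p = 4.08e-07). NDRG1 (-1.72), the stress gene, and VEGFA (-0.54), the angiogenic growth factor, were lower as well and were singled out after their values were seen. VEGFA differed in kind: the knockout effect was 0.56 in monolayers and 0.02 in gels, so its interaction came from monolayers. ADM, the vasodilator peptide adrenomedullin, was the 1 member called higher, at 0.54 ± 0.093 (adjusted p = 0.000171). It stood at 72.8 and 78.2 CPM in knockout gels, above the 46.6 to 58.0 CPM of the other 3 groups.

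Of 9 tested sensors and factors of this pathway, 2 (22.2%) were called lower and none higher, with a median of -0.05: the prolyl hydroxylase EGLN3 (-1.11 ± 0.320; adjusted p = 0.0279) and VHL, the ligase subunit that removes hypoxia-inducible factors (-0.25 ± 0.073; adjusted p = 0.0311). Both are weak calls. That of EGLN3 was lost without the first library of any 1 of the 4 groups, with an adjusted p of up to 0.199. That of VHL was lost without any 1 of 6 (all but the second control gel and first knockout gel libraries), with an adjusted p of up to 0.266. EGLN3 is itself a hypoxia target and is counted in both lists. HIF1A, the oxygen-regulated subunit, had 0.11 ± 0.071 (adjusted p = 0.418), with levels of 379 to 403 CPM in the control libraries and 399 to 456 CPM in the knockout libraries. Its knockout effect was 0.11, not called, in monolayers and 0.22, called, in gels. EPAS1, the related HIF-2 subunit, had an interaction of -0.28 ± 0.10 (adjusted p = 0.0929), with a knockout effect of 0.45, called, in monolayers and 0.17, not called, in gels. ARNT, their shared partner, had an interaction of -0.04 ± 0.091 (adjusted p = 0.873). These are RNA levels of factors whose activity is set mainly by protein stability, which was not measured.

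Glycolysis enzymes shifted down as a group in the interaction. Of 26 tested, 20 were lower and none was higher, with a median of -0.43, and the 20 ran from HK1 at -0.27 to ALDOC at -1.40. In monolayers the knockout raised 3 of the 26 and lowered 7, and in gels it raised 0 and lowered 21. LDHA, which turns pyruvate to lactate, stood at 1943 and 2104 CPM in control monolayers, 2150 and 2274 in knockout monolayers, 2614 and 2517 in control gels and 1647 and 1697 in knockout gels. The knockout gels were the lowest group and the control gels the highest. The interaction was -0.75 ± 0.067 (adjusted p = 1.01e-09). PGK1, an ATP-generating step, stood at 1071 and 1176, 972 and 994, 1538 and 1437, and 776 and 817 CPM in the same order of groups. Control gels were again the highest group and knockout gels the lowest, and the interaction was -0.71 ± 0.069 (adjusted p = 5.77e-09). The glucose importer SLC2A1 was lower by another route: it rose by 0.35 in knockout monolayers and showed -0.07 in gels, for an interaction of -0.42 ± 0.070 (adjusted p = 0.000126). Several of these enzymes have processed pseudogenes that could take part of their reads, so their levels are uncertain to that extent.

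Read the other way, the interaction is the culture effect in knockout cells minus that in control cells. Over all 44 tested hypoxia-response genes, 14 rose and 6 fell from plastic to gel in control cells, with a median of 0.09, where 16.0% of all genes rose and 10.7% fell (26.7% in either direction). In knockout cells 2 of the 44 rose and 34 fell, with a median of -0.47, where 20.1% of all genes rose and 17.9% fell (38.0% in either direction). Over all 26 glycolysis enzymes, 19 rose and 2 fell in control cells, with a median of 0.26. In knockout cells 1 of the 26 rose and 17 fell, with a median of -0.19. The lists share 5 genes and hold 65 distinct tested genes. The plot of culture effects shows the 45 of these that were called lower in the interaction, which by that choice have a lower culture effect in knockout cells than in control cells.

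**Figure D3:**
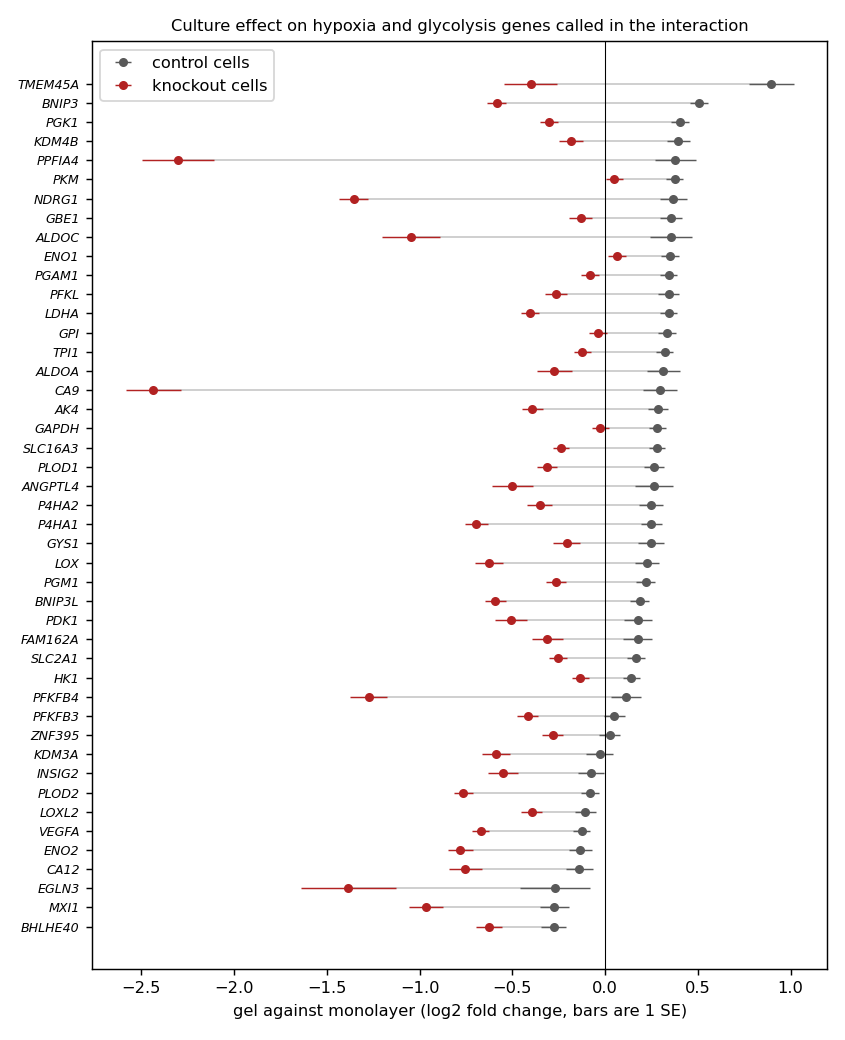
Culture effect (gel against monolayer, log2 fold change, bars are 1 SE) in control cells and in knockout cells for the 45 hypoxia and glycolysis genes called lower in the interaction, ordered by the effect in control cells. The choice of genes places the knockout point to the left of the control point in each, and the sizes of the gap differ, with CA9 and PPFIA4 the farthest to the left.

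Cholesterol and fatty acid genes, which SREBP factors control, mostly fell with the knockout in both cultures, with a lower interaction in many of them. Of 33 tested, 16 were lower in the interaction and 1 was higher, with a median of -0.33. The knockout lowered 24 of them in monolayers and 28 in gels and raised none. HMGCS1, which makes the precursor of mevalonate, stood at 112 and 109 CPM in control monolayers, 72.2 and 67.8 in knockout monolayers, 161 and 165 in control gels and 69.6 and 68.5 in knockout gels. Gels were above plastic in control cells, and in knockout cells the 2 cultures overlapped. Its interaction was -0.58 ± 0.078 (adjusted p = 3.72e-06). SCD, the desaturase that makes monounsaturated fatty acids, had -0.62 ± 0.069 (adjusted p = 9.8e-08), and FADS2, a polyunsaturated fatty acid desaturase, -0.42 ± 0.066 (adjusted p = 4.97e-05). The 1 higher gene was ACACA, which makes malonyl-CoA, with knockout effects of -0.39 in monolayers and 0.09 in gels. SQLE, squalene epoxidase, fell by a similar amount in both cultures, by 0.70 in monolayers and 0.77 in gels, with an interaction of -0.07 and a 95% interval of -0.26 to 0.12.

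Many inflammatory genes rose with the knockout on plastic, and fewer did in gels. Of 29 tested NF-kB targets and cytokines, 14 were lower in the interaction and none was higher, with a median of -0.44. The knockout raised 17 and lowered 0 in monolayers, and raised 6 and lowered 8 in gels. IL1B, the proinflammatory cytokine interleukin 1 beta, stood at 3.02 and 3.47 CPM in control monolayers, 13.6 and 16.3 in knockout monolayers, 3.51 and 2.25 in control gels and 2.96 and 2.60 in knockout gels. The knockout monolayers stood apart, and the control gels overlapped both the control monolayers and the knockout gels. The interaction was -2.29 ± 0.286 (95% interval -2.87 to -1.71; adjusted p = 8.55e-07). CXCL8, the neutrophil attractant interleukin 8, stood at 9.02 and 7.69, 25.2 and 29.3, 20.5 and 18.4, and 20.4 and 18.9 CPM in control monolayers, knockout monolayers, control gels and knockout gels. In control cells it was higher in gels than on plastic, by 1.20, and the gel groups overlapped, with an interaction of -1.68 ± 0.149 (adjusted p = 1.01e-09).

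TNIP1, an inhibitor of NF-kB signalling, differed from the cytokines in that its change lay in gels. It stood at 184 and 204 CPM in control monolayers, 212 and 212 in knockout monolayers, 245 and 235 in control gels and 168 and 160 in knockout gels, for an interaction of -0.68 ± 0.072 (adjusted p = 2.96e-08). ICAM1, the leukocyte adhesion receptor, had the same form, with knockout effects of 0.19, not called, in monolayers and -0.61 in gels. Interferon-stimulated genes, by contrast, had 3 of 47 called lower and none higher. That is 6.38%, near the 6.60% of all genes called in either direction. Their median interaction was -0.09. The knockout raised 21 of them in monolayers and 18 in gels, where 9.60% and 11.5% of all genes rose. The 3 were IRF1, the interferon-responsive transcription factor (-0.60 ± 0.111; adjusted p = 0.000434), LGALS3BP (-0.32) and GBP2 (-0.43). The calls for LGALS3BP and GBP2 were lost without the first control monolayer library, and that for GBP2 also without 3 other libraries (second knockout monolayer, first control gel, second knockout gel), with adjusted p-values of up to 0.0696 and 0.202.

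TGF-beta targets split. Of 29 tested, 7 were lower and 4 were higher in the interaction, with a median of -0.11. TGFBI, a secreted matrix protein induced by TGF-beta, stood at 17.1 and 19.9 CPM in control monolayers, 55.3 and 52.7 in knockout monolayers, 10.9 and 8.89 in control gels and 10.4 and 8.98 in knockout gels. It rose by 1.56 with the knockout on plastic, and the gel groups overlapped. The interaction was -1.60 ± 0.153 (adjusted p = 4.18e-09). PMEPA1, a feedback inhibitor of the pathway, stood at 39.7 and 35.7, 106 and 110, 22.6 and 23.4, and 28.8 and 27.9 CPM in the same order. Its knockout effect was called in both cultures, at 1.52 and 0.30, and differed by -1.21 ± 0.104 (adjusted p = 5.11e-10). The 4 higher members were CCN2, the ligand TGFB2, the inhibitory binding protein FST and ID1, at 0.49, 0.46, 0.36 and 0.58.

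**Figure D4:**
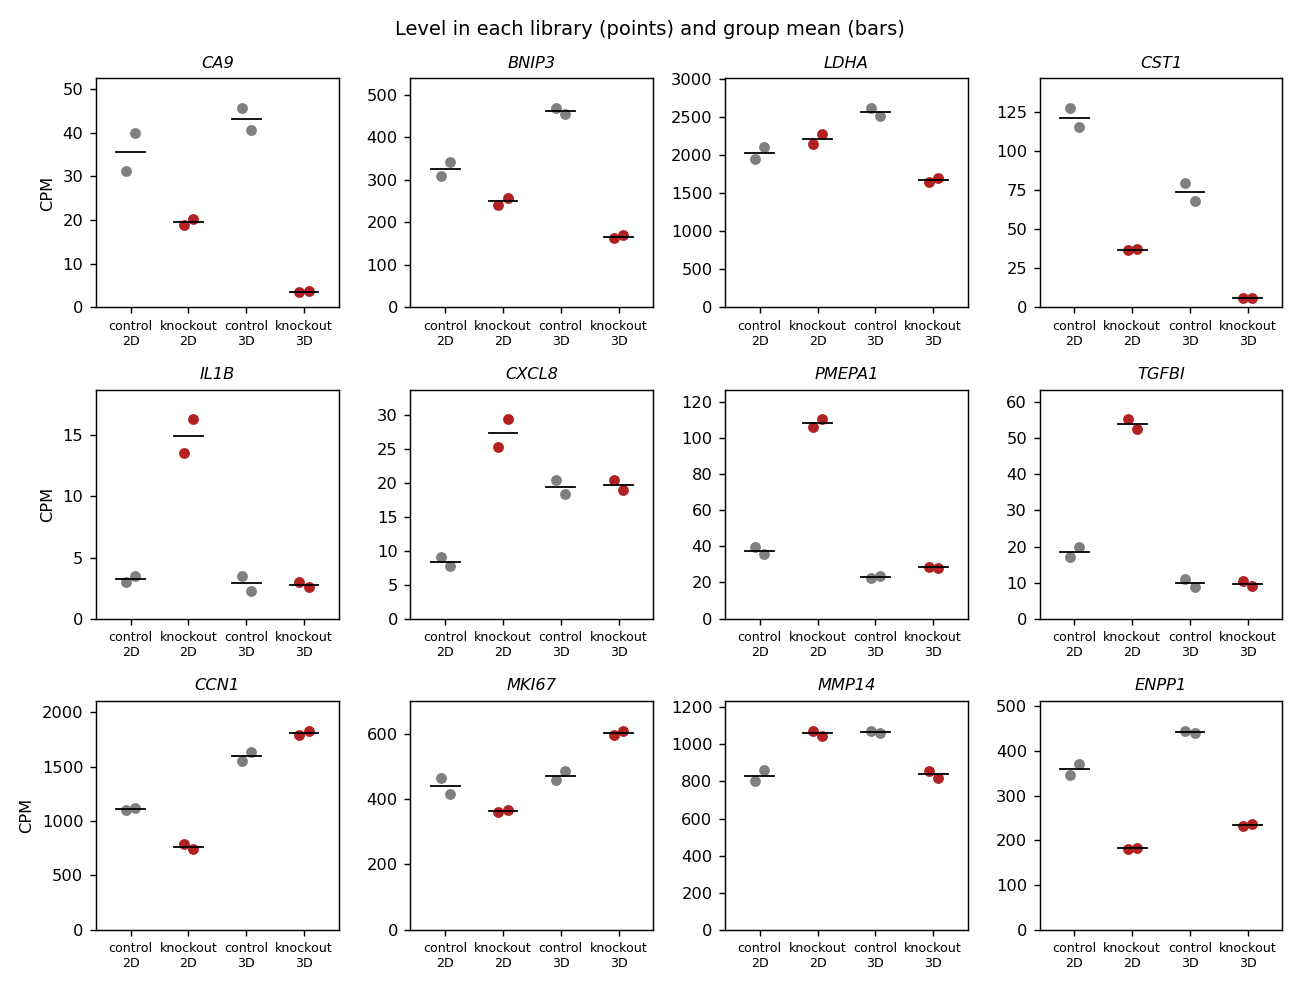
Level (CPM, vertical axes from 0) of 12 named genes in each of the 8 libraries (points), with the mean of each group of 2 (bars), grey for control and red for knockout. CA9, BNIP3 and CST1 are lowest in knockout gels, IL1B, PMEPA1 and TGFBI stand out in knockout monolayers, CCN1, MKI67 and MMP14 change order between cultures, and ENPP1 falls by a similar ratio in both.

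Proteases, their activators and inhibitors were lower in 15 of 37 tested, with 1 higher, and had a median interaction of -0.32. The knockout raised 13 and lowered 9 of them in monolayers, and raised 4 and lowered 15 in gels. MMP14, the membrane-anchored collagenase of invading cells, stood at 801 and 861 CPM in control monolayers, 1074 and 1044 in knockout monolayers, 1073 and 1061 in control gels and 856 and 820 in knockout gels. The knockout groups were above control on plastic and below control in gels. The knockout effect was 0.35 in monolayers and -0.35 in gels, both called, for an interaction of -0.70 ± 0.065 (adjusted p = 1.97e-09). ADAM19, a membrane-bound sheddase, turned in the same way, from 0.53 to -0.28, with an interaction of -0.81 ± 0.073 (adjusted p = 1.18e-09). TIMP1, the secreted inhibitor of metalloproteinases, rose by 0.72 in monolayers and showed 0.04 in gels.

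Both plasminogen activators fell with the knockout in gels, and 1 of them also fell, by less, in monolayers. PLAT, tissue plasminogen activator, stood at 355 and 392, 250 and 275, 395 and 384, and 147 and 145 CPM in control monolayers, knockout monolayers, control gels and knockout gels. The knockout libraries were the lower ones in each culture, by more in gels, with an interaction of -0.91 ± 0.073 (adjusted p = 2.32e-10). PLAU, urokinase, had knockout effects of 0.06, not called, in monolayers and -0.54 in gels. PLAUR, its receptor, had -0.37 ± 0.078 (adjusted p = 0.00181), a call lost without the first control monolayer library (adjusted p = 0.0603). CST1, a secreted inhibitor of cysteine cathepsins, stood at 127 and 116 CPM in control monolayers, 36.5 and 37.4 in knockout monolayers, 79.7 and 68.2 in control gels and 6.14 and 6.01 in knockout gels, with an interaction of -1.89 ± 0.128 (adjusted p = 4.37e-12). CST1 and CST4 are near-identical paralogs and could share reads, so the split between them is uncertain, and CST4 had -1.01 ± 0.143. The 1 higher member was ADAMTS1, a secreted proteoglycan-cleaving enzyme, at 0.37.

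Matrix genes were lower more often than higher. Of 44 glycoproteins and cross-linking enzymes, 15 were lower and 2 were higher, with a median of -0.24. Of 24 collagen chains, 6 were lower and 2 were higher, with a median of -0.44. Of the 6 lower collagens, 3 had their knockout effect mainly on plastic and 3 in gels. COL6A3, a microfibrillar chain, had a knockout effect of 0.86 in monolayers and 0.10, not called, in gels, for an interaction of -0.76 ± 0.120 (adjusted p = 4.97e-05). COL5A1, which sets fibril diameter, had 0.48 and -0.19 (both called), and COL18A1, the basement membrane chain that holds endostatin, had 0.45 and -0.08. COL6A1, another microfibrillar chain, had -0.19 in monolayers and -0.68 in gels, COL17A1, a hemidesmosome collagen, 0.03 and -0.54, and COL4A2, a basement membrane chain, -0.01 and -0.24. The call for COL17A1 was lost without the first control monolayer or the second library of either knockout group (adjusted p up to 0.0987), and that for COL4A2 without any 1 of 5 libraries that include both control gels (adjusted p up to 0.262). PLOD2, the lysyl hydroxylase that sets collagen cross-links, fell in gels alone, with an interaction of -0.69 ± 0.071 (adjusted p = 1.77e-08). COL12A1, a fibril-associated chain, went the other way. It stood at 69.1 and 58.9 CPM in control monolayers, 38.7 and 35.2 in knockout monolayers, 67.2 and 72.6 in control gels and 66.6 and 76.9 in knockout gels. Only the knockout monolayers were low, and the interaction was 0.84 ± 0.115 (adjusted p = 5.43e-05). The other higher members were COL8A1 (0.40), THBS1 (0.34) and FBN1 (0.44). The FBN1 call was lost without the first control monolayer, second knockout monolayer or first control gel library, with an adjusted p of up to 0.146.

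Of 19 integrins and collagen receptors, 5 were lower and none was higher, with a median of -0.12. ITGB4, the hemidesmosome integrin, stood at 329 and 362, 152 and 146, 556 and 510, and 167 and 165 CPM in control monolayers, knockout monolayers, control gels and knockout gels. It fell by 1.21 in monolayers and by 1.68 in gels, an interaction of -0.47 ± 0.073 (adjusted p = 4.8e-05). DDR1, a collagen-activated receptor kinase, had -0.59 ± 0.095 (adjusted p = 6.54e-05) and ITGB5, a vitronectin-binding integrin chain, -0.41 ± 0.075 (adjusted p = 0.000431), both from gels. The remaining members called were MRC2 (-0.50), the collagen uptake receptor, and ITGA5 (-0.38), the fibronectin receptor chain. SOX4, a transcription factor of epithelial plasticity outside this list, turned from 0.54 in monolayers to -0.32 in gels (interaction -0.86 ± 0.085; adjusted p = 8.63e-09).

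Genes on the higher side included targets of YAP and TAZ. The mitotic and integrated stress response lists described below also had 9 higher members each. Of 28 YAP and TAZ targets tested, 9 were higher and 2 were lower, against 2.67% and 3.94% of all genes, with a median of 0.13. The knockout lowered 10 and raised 2 of them in monolayers, and lowered 5 and raised 6 in gels. CCN1, a secreted matricellular protein and a standard YAP reporter gene, stood at 1100 and 1119 CPM in control monolayers, 790 and 738 in knockout monolayers, 1551 and 1638 in control gels and 1791 and 1832 in knockout gels. The knockout lowered it on plastic and raised it in gels, with no overlap in either culture. The knockout effect was -0.54 in monolayers and 0.18 in gels, for an interaction of 0.72 ± 0.065 (95% interval 0.59 to 0.85; adjusted p = 1.13e-09). CCN2, its relative, fell in both cultures by less in gels (-0.80 and -0.31), with 0.49 ± 0.062 (adjusted p = 1.03e-06). ANKRD1, a stretch-responsive nuclear protein, had 0.53 ± 0.065 (adjusted p = 7.8e-07), from monolayers. The 2 lower members were IGFBP3 (-0.43), which binds insulin-like growth factors, and NT5E (-0.40), the ectonucleotidase CD73. The count of higher members was 5 without the first control gel library.

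FLNC, the actin cross-linker filamin C, had the same form as CCN1. It stood at 250 and 255, 191 and 174, 343 and 343, and 402 and 403 CPM in control monolayers, knockout monolayers, control gels and knockout gels. Its knockout effect turned from -0.47 to 0.23, with an interaction of 0.70 ± 0.067 (adjusted p = 4.18e-09). It was the 1 higher member of 31 SRF and actin genes, of which 2 were lower (PDLIM7 and TAGLN2, at -0.40 and -0.33). The list's median was -0.01, and 9.68% of it was called, where 6.60% of all genes were called.

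Mitotic genes were higher in 9 of 46 and lower in none, with a median of 0.16. The knockout raised 4 and lowered 8 of them in monolayers, and raised 25 and lowered 0 in gels. MKI67, the proliferation antigen that coats mitotic chromosomes, stood at 463 and 417 CPM in control monolayers, 361 and 368 in knockout monolayers, 457 and 486 in control gels and 595 and 610 in knockout gels. Knockout cells were below control on plastic and above control in gels. The interaction was 0.63 ± 0.069 (95% interval 0.49 to 0.77; adjusted p = 7.15e-08), from -0.27 and 0.35. CENPF, a kinetochore protein, had 0.44 ± 0.069 (adjusted p = 4.91e-05) and ASPM, a spindle pole protein, 0.41 ± 0.080 (adjusted p = 0.000962). The number of higher members was 4 and 5 without the first or the second control gel library. In these bulk RNA data a larger share of cells in mitosis and more RNA per cell cannot be told apart. The 100 bases before the start of MKI67 (chr10:128126424-128126523, minus strand, RefSeq on GRCh38.p14) are shown because they hold the cell cycle homology region, TTTGAA (in capitals), the element that represses such genes outside mitosis.
MKI67: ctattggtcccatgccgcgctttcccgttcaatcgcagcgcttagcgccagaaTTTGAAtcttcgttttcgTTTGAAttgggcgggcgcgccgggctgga

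TTTGAA on either strand was present in 20 of 39 promoters of the mitotic list (51.3%), in 13.4% of the promoters of all higher genes, in 7.57% of those of lower genes and in 8.43% of all 11102. CCGGAAG, an ETS site, was present in 15.8% of all promoters, in 8.59% of those of lower genes and in 16.1% of those of higher genes. TGACTCA, the AP-1 site, was present in 2.72% of all promoters, in 5.11% of those of lower genes and in 1.79% of those of higher genes. The sterol regulatory element letters TCACNCCAC were present in 0.865% of all promoters and in 1 of 25 of the cholesterol list (4.0%). These shares describe letters in windows of 250 bases and were not tested.

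Of 51 DNA replication genes, 4 (7.84%) were higher and none was lower, where 2.67% of all genes were higher, with a median of 0.10. The 4 were RFC4, E2F7, CLSPN and POLA1, at 0.31 to 0.40. The knockout raised 13 of them in monolayers and 32 in gels. The call held with each library left out for E2F7, a repressor of E2F targets. It was lost without any 1 of 5 libraries for RFC4 and for CLSPN (adjusted p up to 0.14 and 0.123), and without the first control gel or the second knockout gel library for POLA1 (adjusted p up to 0.129). All of RFC4, CLSPN and POLA1 lost it without the first control gel library and without the second knockout gel library.

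Targets of ATF4, the factor of the integrated stress response that controls amino acid supply, were higher in 9 of 36 and lower in none, with a median of 0.18. The knockout lowered 20 and raised 3 of them in monolayers, and lowered 9 and raised 7 in gels. PSAT1, an enzyme of serine synthesis, stood at 200 and 212 CPM in control monolayers, 149 and 154 in knockout monolayers, 227 and 226 in control gels and 220 and 224 in knockout gels. It fell by 0.44 on plastic and showed -0.03, not called, in gels. The interaction was 0.41 ± 0.068 (adjusted p = 0.000104). SLC7A11, the cystine importer, had 0.69 ± 0.114 (adjusted p = 0.00252) and CEBPG, an ATF4 partner, 0.41 ± 0.086 (adjusted p = 0.00201). The count of higher members was 5 and 4 without the first or the second control gel library, and 14 with the length and GC offset. The related endoplasmic reticulum stress list had 0 of 22 called and a median of -0.03.

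Genes that respond to ERK and to tissue handling gave mixed signs. Of 29 ERK output genes, 3 were higher and 4 were lower, with a median of -0.01. DUSP1, a phosphatase that switches MAP kinases off, stood at 55.3 and 61.4 CPM in control monolayers, 46.1 and 45.9 in knockout monolayers, 410 and 429 in control gels and 524 and 534 in knockout gels. All gel libraries were several times above all monolayer libraries, and the knockout was below control on plastic and above it in gels, with an interaction of 0.67 ± 0.076 (adjusted p = 1.29e-07). DUSP5, an ERK phosphatase, had 0.47 ± 0.076 (adjusted p = 6.78e-05), and MYC, the growth-promoting transcription factor, 0.27, a call lost without either control gel library (adjusted p up to 0.0886). The 4 lower members were SPRED3, ELK3, DUSP4 and EGR1. Of these, SPRED3 lost its call without the first knockout monolayer library (adjusted p = 0.0609), ELK3 without the first control monolayer, the second knockout monolayer or the first control gel library (up to 0.0806) and EGR1 without the first library of either monolayer group or the second of either gel group (up to 0.149).

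Enzymatic dissociation of tissue induces immediate-early genes. Of 32 such genes, a list that does not hold DUSP1, 25 rose from plastic to gel in control cells and 23 in knockout cells, while 2 were higher and 4 lower in the interaction, with a median of -0.03. Their summed level was 3690 to 3816 CPM in control monolayers, 3646 to 3745 in knockout monolayers, 6436 to 6575 in control gels and 6086 to 6522 in knockout gels. The part of harvest in their interactions was not tested. The higher ones were KLF6 (0.37) and ATF3 (0.78), and the lower ones JUNB (-0.43), FOS (-0.39), EGR1 (-0.33) and IER2 (-0.24). FOS and IER2 each lost the call without any 1 of 7 libraries (adjusted p up to 0.231 and 0.264), and ATF3 without the first control or first knockout monolayer library (up to 0.0645).

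Growth factor and developmental genes outside these lists were also among the 10 leading higher genes. FGF5, a fibroblast growth factor, stood at 51.2 and 50.9, 33.2 and 34.7, 51.5 and 55.2, and 53.6 and 54.2 CPM in control monolayers, knockout monolayers, control gels and knockout gels. The knockout monolayers alone were low, and the interaction was 0.61 ± 0.096 (adjusted p = 4.97e-05). PEG10, an imprinted retrotransposon-derived gene, turned from -0.21 to 0.24, with an interaction of 0.45 ± 0.065 (adjusted p = 1.32e-05).

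Much of the knockout response did not depend on culture by a called amount. The knockout effect was called in monolayers, in gels or in both for 5218 genes, and the interaction was called for 985 of them. With the same sign in both cultures, the knockout effect was called for 1418 genes. Some of the 1418, among them BNIP3 and CA9, were also called in the interaction. In 470 of the 1418 the 95% interval of the interaction lay within a fold of 1.2 either way (0.26 on the log2 scale). That count of 470 was limited to genes with a mean of at least 5 CPM and without a clone or LOC identifier. Among all 15568 tested genes, without that limit, 2733 had such an interval, whether or not the knockout effect was called. ENPP1, the ectoenzyme that makes pyrophosphate, stood at 346 and 372 CPM in control monolayers, 181 and 184 in knockout monolayers, 446 and 441 in control gels and 232 and 237 in knockout gels. It fell by 0.97 in monolayers and by 0.92 in gels, with an interaction of 0.06 and a 95% interval of -0.08 to 0.19. HAS2, a hyaluronan synthase, rose by 0.83 and 0.85, from 38.5 and 40.8 to 68.9 and 72.0 CPM on plastic and from 52.8 and 52.9 to 95.3 and 95 CPM in gels, with an interval of -0.16 to 0.19. The phosphatidate phosphatase LPIN2 (interval -0.24 to 0.06) and the paraneoplastic antigen gene PNMA2 (-0.23 to 0.22) fell in both cultures with intervals inside the same limit. These genes were picked for a narrow interval and a large effect, so their agreement is a description.

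**Figure D5:**
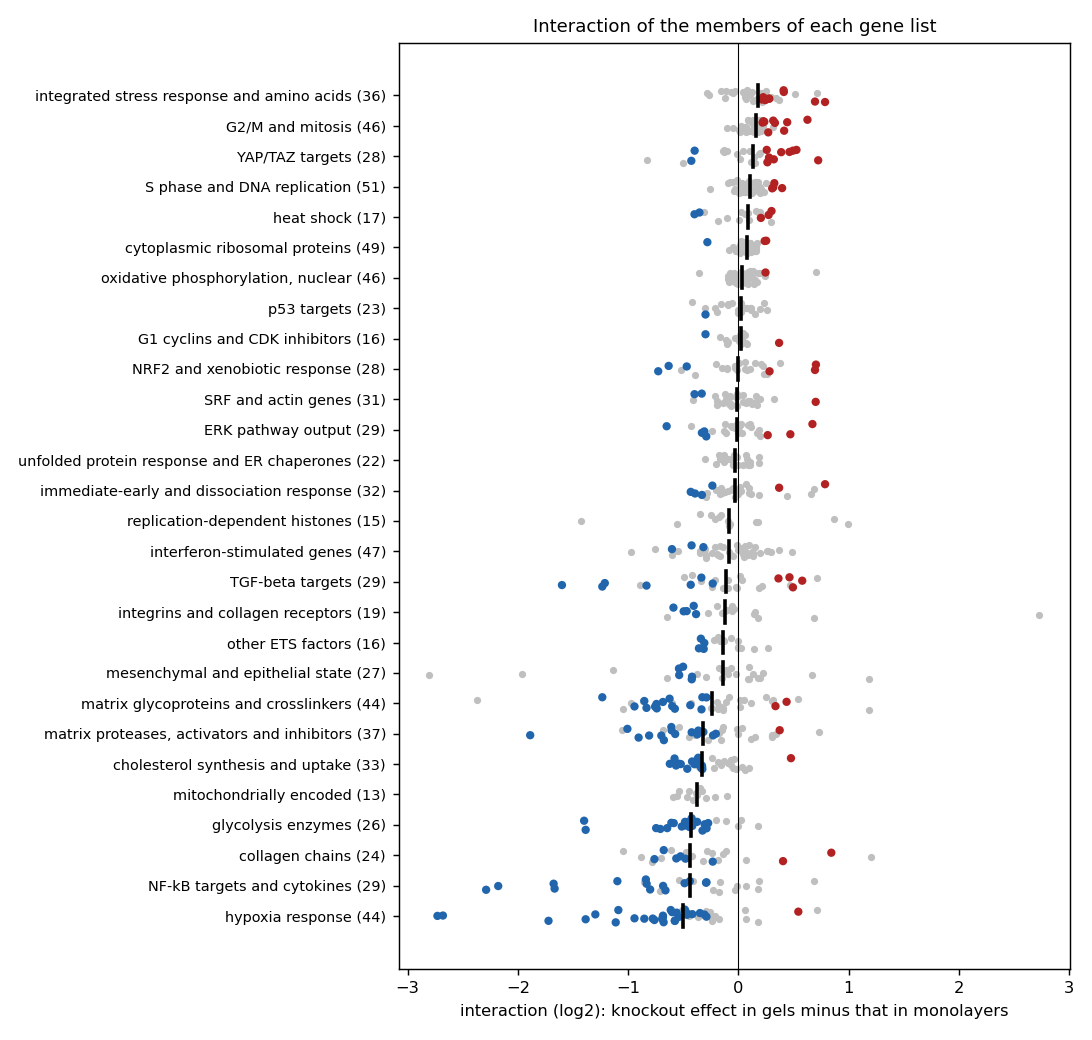
Interaction (log2, horizontal axis) of each member of the gene lists with at least 10 tested genes, marker lists aside, one point per gene, with the number tested in brackets, blue and red for genes called lower and higher, grey for genes not called, and a black bar at the median. Medians run from -0.50 for the hypoxia-response genes to 0.18 for the integrated stress response.

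Among the remaining lists, the share called in either direction was 29.4% for heat shock genes, 25% for other ETS factors, 21.4% for NRF2 and xenobiotic response genes and 18.5% for mesenchymal and epithelial genes, where 6.60% of all genes were called. Nuclear-encoded respiratory chain subunits had 1 of 46 higher, CYC1 (0.24), a call lost without either control gel or the second control monolayer library (adjusted p up to 0.14). Cytoplasmic ribosomal proteins had 2 of 49 higher (RPL12 and RPL23) and 1 lower (RPL22), each lost without the first control gel library, among others (adjusted p up to 0.0918, 0.109 and 0.218). Of 23 p53 targets 1 was lower, the cyclin-dependent kinase inhibitor CDKN1A, which was also the lower 1 of 16 G1 genes, with the kinase CDK6 the higher 1. Both lost the call without the first control monolayer library, among others (adjusted p up to 0.17 and 0.11). Replication-dependent histones had 0 of 15 called. Of 6 metallothionein and zinc genes 1 was lower, the zinc exporter SLC30A1, lost without the first control or second knockout monolayer library (adjusted p up to 0.106). Of 28 NRF2 and xenobiotic response genes, 3 were higher and 3 lower, with a median of 0.00. AKR1B1, an aldose reductase, had -0.47 ± 0.073 (adjusted p = 4.63e-05), from 0.88 in monolayers and 0.41 in gels. The other lower members, AKR1C1 and AKR1C3, belong to a family of related genes whose reads may be split, so no interaction is given for them. AKR1C1 lost its call without any 1 of 5 libraries that include both control gels. The higher members were SLC7A11, the ferritin chain FTL (0.28), lost without the first control gel library (adjusted p = 0.0837), and CYP1A1, an aryl hydrocarbon receptor target (0.70), lost without any 1 of 4 libraries that include it (adjusted p up to 0.2). Of 17 heat shock genes, 3 were higher, the chaperones HSP90AA1 (0.30 ± 0.063; adjusted p = 0.00201), HSPH1 and HSPD1, and 2 were lower, the co-chaperone BAG3 (-0.40 ± 0.069; adjusted p = 0.000197) and HSPA1B, which has a near-identical copy. HSPH1 lost the call without the first control gel library (adjusted p = 0.132), HSPD1 without any 1 of 5 libraries that include it (adjusted p up to 0.235), and HSPA1B without the first control monolayer library (adjusted p = 0.072). Of 27 mesenchymal and epithelial genes 5 were lower: CLDN4 and KRT19, which lost the call without the first control gel library, among others (adjusted p up to 0.117 and 0.128), KRT7, a simple epithelial keratin (-0.50 ± 0.073; adjusted p = 1.3e-05), the tight junction gene CLDN7 (-0.54 ± 0.093; adjusted p = 0.000173) and S100A4, a calcium-binding protein of motile cells (-0.42 ± 0.066; adjusted p = 4.8e-05). Of 16 other ETS factors 4 were lower: ELK3 (-0.31), EHF (-0.34), ERF (-0.32) and SPDEF (-0.36). Each lost its call without the first control monolayer library and without the first control gel library, among others, with adjusted p-values of up to 0.0806, 0.17, 0.334 and 0.335.

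All 13 mitochondrially encoded genes had negative interactions, with a median of -0.38, and none was called. Their summed level ranged from 27850 to 37810 CPM in the control gels and from 23420 to 34090 CPM in the knockout gels, so the 2 ranges overlapped. Defining markers of other cell types were at or near 0, while some listed markers were expressed. Of 14 leukocyte markers, 5 passed the filter, 2 were lower (LAPTM5 and LYZ) and none was higher, with summed levels of 55.5 to 61.4 CPM in control monolayers, 60.1 to 64.4 in knockout monolayers, 60.0 to 60.4 in control gels and 33.5 to 34.7 in knockout gels. Most of that sum was LAPTM5, a lysosomal membrane protein, at 45.2 and 51.4 CPM in control monolayers and 27.2 and 28.0 CPM in knockout gels (interaction -0.95 ± 0.104; adjusted p = 6.33e-08), while LYZ lost its call without any 1 of 5 libraries that include the first of either control (adjusted p up to 0.254). PTPRC, which defines leukocytes, had 4 to 21 counts in a library, and MS4A1 and TYROBP had 0 in all 8. Of 10 endothelial markers, 5 passed and 2 were lower, the guidance receptor ROBO4 (-0.82 ± 0.117; adjusted p = 1.17e-05) and ESAM, a call lost without any 1 of 4 libraries that include the first of either control (adjusted p up to 0.118), with ESAM at 149 to 203 CPM, ROBO4 at 19.6 to 56.7, TIE1 at 5.26 to 13.4 and PECAM1 at 3.40 to 7.88. CLDN5 and EMCN were at 0 and CDH5 at 0 to 1 counts. The summed endothelial level was 214 to 226.5 CPM in control monolayers, 204 to 208 in knockout monolayers, 266.7 to 278.6 in control gels and 201.7 to 201.8 in knockout gels. Of 12 tested luminal breast line markers 1 was lower (KRT19), and of 10 markers of MDA-MB-231 cells 1 was higher (EGFR, 0.33, lost without the first control gel library, adjusted p = 0.0556) and 1 lower (PLAUR). Of 12 fibroblast markers, 3 passed and none was called. COL1A1 stood at 9.04 to 18.4 CPM and PDGFRB at 2.47 to 6.28 CPM, while DCN had 0 to 1 and COL1A2 0 to 4 counts. The part of other cells in the results was not tested.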

How the data were processed

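The authors deposited 1 table of raw counts per gene for 8 libraries. The tools listed in the submitters' processing notes are STAR 2.7.9a, featureCounts, FastQC 0.11.9 and R 4.1.1, with hg38 as the build. No source used here gives the annotation or the strand setting behind the deposited counts, so reads of a gene and its antisense partner may not be told apart. Libraries were made with a stranded polyA kit, per the labels' protocols.

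From the deposited counts, edgeR 4.0.16 in R 4.3.3 was used with TMM factors, its expression filter (minimum count 10, by group) and a robust quasi-likelihood fit of 4 group means over all 8 libraries, with 4 residual degrees of freedom. The interaction and its component contrasts had two-sided tests, with Benjamini-Hochberg adjustment across 15568 genes and calls at 0.05. SE is the log2 value divided by the square root of F. CPM values use effective library sizes. The 4 groups share replicate numbers 1 and 2, which did not pair the libraries. Replicates of each group differed by more than sampling noise, with a chi-square per degree of freedom of 2.54 to 6.31. Other scalings, filters, tools (DESeq2 1.42.0, limma 3.58.1 voom), a fold of 1.5, a replicate block, a length and GC offset (GENCODE 29) and leaving out each library were tried.

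The members and the gene lists were chosen with earlier results of these data known. Named genes are ETV1, ETV4 and ETV5, and the 10 genes of either sign that rank first by adjusted p (mean of at least 5 CPM). Up to 3 called members per list, 6 genes of opposite sign and 6 of like effect in both cultures complete the rule. Other names, among them those of lists with few calls, were chosen after their values were seen, and 1 gene that the rule names is not reported here.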

Additional observations from a re-analysis of the deposited data

Results flagged for a closer look

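The knockout effect differed between gels and monolayers for 1028 genes by the test of the difference itself (edgeR's quasi-likelihood test, Benjamini-Hochberg adjusted). In 74 of them the effect was also called in each culture, with opposite signs. The 6 of these with the smallest adjusted p were CCN1 (interaction 0.72 on the log2 scale), FLNC (0.70) and MKI67 (0.63), which fell on plastic and rose in gels, and ADAM19 (-0.81), MMP14 (-0.70) and SOX4 (-0.86), which rose on plastic and fell in gels. Each of the 6 kept its call with each library left out in turn. Groups of 2 libraries are too small for a check on outlying samples.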

How the results depend on the processing

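With DESeq2's Wald test 678 genes were called, 364 of them lower, among 9531 genes with an adjusted p. Against a fold of 1.5, 19 were called, 0 higher and 19 lower. These held 7 hypoxia-response genes, 2 glycolysis enzymes, 4 NF-kB targets and cytokines, 2 TGF-beta targets, 2 proteases, 1 matrix glycoprotein gene and 0 genes of the cholesterol, mitotic, YAP/TAZ and integrated stress response lists. That test asks for more than any difference, so fewer genes can pass. With the length and GC offset 608 genes were higher and 474 lower, and 14 stress response genes were higher. Leaving out 1 library at a time gave 407 to 1263 calls, 122 to 496 higher and 285 to 767 lower. The higher counts then ran from 4 to 11 for mitotic genes, 5 to 11 for YAP/TAZ targets and 4 to 10 for stress response genes, and the cause was not tested. A group left with 1 library is assumed to vary like the others.

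Scaling by DESeq2 size factors, by upper quartiles or by library size, limma voom, filters on low counts and a non-robust fit gave 915 to 1104 calls. Replicate numbers did not pair the libraries (correlations of replicate differences of -0.0629 to 0.0817), and a fit with a replicate block called 1203 genes, 484 higher and 719 lower. No called gene changed sign under any setting, though the length and GC offset kept 68% of the calls and DESeq2's Wald test 63.4%. With 2 libraries a group, the median SE of the interaction was 0.136 on the log2 scale, which limits what could be called.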

Other observations

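Split by the culture effect, as a description of genes chosen by the interaction, the called genes fell into few forms. Of the 613 lower genes, 309 did not pass the test between plastic and gel in control cells and fell in knockout gels, and 111 rose in control gels and did not pass in knockout cells. A further 78 rose in control gels and fell in knockout gels, among them BNIP3, CA9, P4HA1, LDHA, PGK1 and MMP14. Of the 415 higher genes, 262 did not pass in control cells and rose in knockout gels, among them MKI67, CENPF, FGF5 and COL12A1, and 66 fell in control gels and did not pass in knockout cells, among them ANKRD1. The culture effect was called for 4158 genes in control cells and for 5915 in knockout cells. These 2 contrasts share no library, and the 1028 interaction calls are the test of their difference.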
